A study of Mus musculus with 16 samples.

Results

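Plasmalogen synthesis and the peroxisome were followed in sorted mouse oligodendrocytes through 6 genes: Gnpat, Agps, Far1, Pex5, Pex7 and Hsd17b4. They were taken by symbol from a deposited table of 53801 genes; each of the 6 symbols named 1 row, and all 6 were among the 21768 genes that passed the filter on low counts. The RNA came from 16 libraries, 1 per mouse, in 4 groups of 4. App_HFD and App_NCD were homozygous App NL-G-F/NL-G-F knock-in mice, in which the mouse App gene carries a humanised amyloid-β stretch with the Swedish, Beyreuther/Iberian and Arctic mutations; WT_HFD and WT_NCD were C57BL/6J Jcl mice. HFD is the high-fat diet D12492, with 60.0% of its energy as fat and 524 kcal per 100 g, and NCD the control diet CE-2, with 12.5% and 345.0 kcal per 100 g. All mice were male, were on their diet for 6 months from 2 months of age and were sampled at 8 months, after perfusion, by magnetic sorting of oligodendrocyte lineage cells from the brain. The App line was kept as an inbred colony while the WT mice were bought, so genotype and breeding source cannot be told apart. The labels do not say that the mice of a group came from separate litters or days, so p-values measure the spread between these mice. The design sets genotype against diet and asks how each acts on oligodendrocyte gene expression. A number after a group name is the mouse number.

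Plasmalogens are ether phospholipids, with an alkenyl chain in place of a fatty acyl chain of the glycerol backbone, and they are abundant in myelin, the membrane that oligodendrocytes wrap around axons. Their synthesis starts inside the peroxisome: GNPAT puts an acyl chain on dihydroxyacetone phosphate, AGPS exchanges it for a fatty alcohol to make the ether bond, and FAR1, on the outer face of the peroxisomal membrane, makes that fatty alcohol and is the regulated step. AGPS reaches the peroxisome only through PEX7, the receptor for the N-terminal kind of peroxisomal targeting signal, which in mammals needs the long isoform of PEX5; PEX5 itself is the receptor for the C-terminal kind, carried by GNPAT and by HSD17B4, the D-bifunctional protein of peroxisomal β-oxidation. In humans, loss of GNPAT, AGPS or PEX7 causes rhizomelic chondrodysplasia punctata, a plasmalogen deficiency.

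The start regions of the 3 enzymes are shown because these genes act in the same pathway and differed in how steady they were between mice. Each runs from 250 bases before the start of the gene to 50 after it, 5′ to 3′ (RefSeq, GRCm38.p6). Capitals mark every match, on either strand, to the GC box GGGCGG and to the inverted CCAAT box ATTGG; no match to the nuclear receptor core motif AGGTCA was found in these 300 bases of any of the 3.
Gnpat (chr8:124862783-124863082, plus): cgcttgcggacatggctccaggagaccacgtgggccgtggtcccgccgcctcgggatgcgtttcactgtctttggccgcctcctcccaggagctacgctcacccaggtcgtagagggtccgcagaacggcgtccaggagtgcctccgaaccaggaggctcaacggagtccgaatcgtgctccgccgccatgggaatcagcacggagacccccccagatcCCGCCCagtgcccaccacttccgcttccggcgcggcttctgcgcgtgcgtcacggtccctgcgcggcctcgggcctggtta
Agps (chr2:75831927-75832226, plus): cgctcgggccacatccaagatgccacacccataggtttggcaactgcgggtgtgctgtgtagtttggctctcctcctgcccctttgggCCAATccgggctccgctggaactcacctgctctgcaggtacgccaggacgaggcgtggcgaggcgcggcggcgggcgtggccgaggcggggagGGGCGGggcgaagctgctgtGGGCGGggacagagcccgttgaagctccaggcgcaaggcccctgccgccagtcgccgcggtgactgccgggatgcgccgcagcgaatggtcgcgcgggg
Far1 (chr7:113513584-113513883, plus): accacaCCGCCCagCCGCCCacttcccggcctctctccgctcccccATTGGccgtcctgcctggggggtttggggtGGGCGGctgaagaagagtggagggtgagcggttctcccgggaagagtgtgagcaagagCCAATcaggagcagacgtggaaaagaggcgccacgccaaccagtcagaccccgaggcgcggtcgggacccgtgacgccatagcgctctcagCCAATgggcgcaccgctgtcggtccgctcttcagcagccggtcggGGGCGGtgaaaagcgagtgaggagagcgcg
All 3 windows are rich in GC (68.7% in Gnpat, 71.0% in Agps and 67.7% in Far1) and in CpG dinucleotides (33, 32 and 28 copies in the same order). Gnpat holds 1 GC box, Agps 2 GC boxes and 1 CCAAT box, and Far1 4 GC boxes and 3 CCAAT boxes. Of 32851 RefSeq start regions of this length, 35.7% hold a GC box, 37.4% a CCAAT box and 16.3% the core motif, so these matches are common. Pex5 has 3 listed start regions, of 54.3% to 79.0% GC, and Pex7 has 1, of 44.0% GC.

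In mm10, with the positions of GENCODE M21, Gnpat lies on the plus strand at chr8:124863033-124890057, Agps on the plus strand at chr2:75832177-75931350 and Far1 on the plus strand at chr7:113513834-113571511. Pex5 lies on the minus strand at chr6:124396816-124415067, Pex7 on the minus strand at chr10:19853900-19907689 and Hsd17b4 on the plus strand at chr18:50128201-50196269. Each count is of the whole gene and does not tell isoforms apart, the long and short Pex5 included. 2810004N23Rik, with a mean of 21 CPM (counts scaled per library, defined below), overlaps Gnpat on the other strand; the library kit keeps strand, but whether counting used it is not given in the sources used here.

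Library totals ran from 64538297 to 217925484 counts, and the members had between 226 and 26290 counts in a library, numbers at which counting error is small. The library App_NCD 553 stood apart: 18928 genes had a count above 0, against 27151 to 30617 in the other 15, and 38.6% of its counts came from the 13 mitochondrially encoded genes, against 1.03% to 4.25%. Results below are therefore given with all 16 libraries, with the 15 others or with both, as stated for each. Markers of the labelled cell type were abundant: the 16 myelin and mature oligodendrocyte markers summed to 36280 to 49290 CPM in App_HFD, 31050 to 52240 in App_NCD, 42730 to 50450 in WT_HFD and 36010 to 48190 in WT_NCD, and none of them was at 0 throughout a group. The 52240 was App_NCD 553, without which the App_NCD sums were 31050 to 41280. Other cells were present too. The 12 microglial markers summed to 8806 to 14840 CPM in App_HFD and 6810 to 13600 in App_NCD, above the 2788 to 5254 in WT_HFD and 3703 to 6165 in WT_NCD. The 6810 was App_NCD 553, without which the App_NCD sums were 11110 to 13600. In such bulk samples, fewer cells of a type and less RNA per cell cannot be told apart. App itself ran from 2141 to 2551 CPM in App_HFD, 2095 to 2315 in App_NCD, 2719 to 3383 in WT_HFD and 2377 to 4011 in WT_NCD; a knock-in that changes bases is not checked by this level.

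The 3 enzymes of the ether pathway were expressed in all 4 groups. Once App_NCD 553 was set aside, Agps was at similar levels in each, and Far1 stayed within 105.1 to 122.4 CPM. Gnpat differed more, with the remaining App_NCD values, up to 50.8 CPM, all below the lowest WT_NCD value, 50.9. Values are CPM, the counts as a share of the library total after scaling by TMM, a factor per library that evens out composition. Agps, which makes the ether bond, had 101.8, 98.2, 94.9 and 97.1 CPM in App_HFD, 90.1, 95.1, 102.0 and 105.7 in App_NCD (105.7 being library 553), 101.4, 98.7, 100.4 and 99.3 in WT_HFD, and 98.1, 103.1, 102.5 and 102.8 in WT_NCD. The ranges of the 4 groups overlap, and the highest of the 15 libraries other than App_NCD 553 was 1.14 times the lowest. Far1, the supplier of fatty alcohol, had 119.6, 108.0, 109.5 and 106.1 CPM in App_HFD, 107.5, 105.1, 112.7 and 164.5 in App_NCD, 113.7, 117.9, 122.4 and 119.9 in WT_HFD, and 112.3, 107.0, 115.0 and 106.2 in WT_NCD. Its 164.5 CPM in App_NCD 553 was the one value outside 105.1 to 122.4. Gnpat, the first enzyme of the pathway, had 46.9, 48.3, 51.4 and 56.0 CPM in App_HFD, 46.4, 50.8, 50.6 and 19.3 in App_NCD, 53.7, 54.8, 50.6 and 48.3 in WT_HFD, and 50.9, 55.6, 67.5 and 54.7 in WT_NCD. App_NCD 553 was low for Gnpat and WT_NCD 11, at 67.5, was the highest; the other 14 libraries lay between 46.4 and 56.0.

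The 2 import receptors were the less abundant members. Pex5 had 34.2, 35.9, 38.8 and 37.7 CPM in App_HFD, 27.1, 36.5, 32.9 and 6.4 in App_NCD, 36.1, 35.0, 33.4 and 32.8 in WT_HFD, and 33.3, 36.8, 53.9 and 36.4 in WT_NCD. App_NCD 553, at 6.4, and WT_NCD 11, at 53.9, lie on opposite sides of the rest. Pex7 had 22.1, 22.0, 21.9 and 21 CPM in App_HFD, 13.6, 20.8, 21.9 and 19.8 in App_NCD, 20.8, 18.8, 21.3 and 22.1 in WT_HFD, and 18.4, 21.1, 26.2 and 22.5 in WT_NCD. Here the low library was App_NCD 537, at 13.6, while App_NCD 553 was among the others. Hsd17b4, which carries out the hydration and dehydrogenation steps of peroxisomal β-oxidation, had 121.1, 123.7, 121.0 and 140.5 CPM in App_HFD, 128.2, 113.3, 108.9 and 78.2 in App_NCD, 125.6, 127.3, 116.1 and 114.6 in WT_HFD, and 106.7, 120.8, 166.1 and 119.5 in WT_NCD. Its extremes were again App_NCD 553 and WT_NCD 11.

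**Figure D1:**
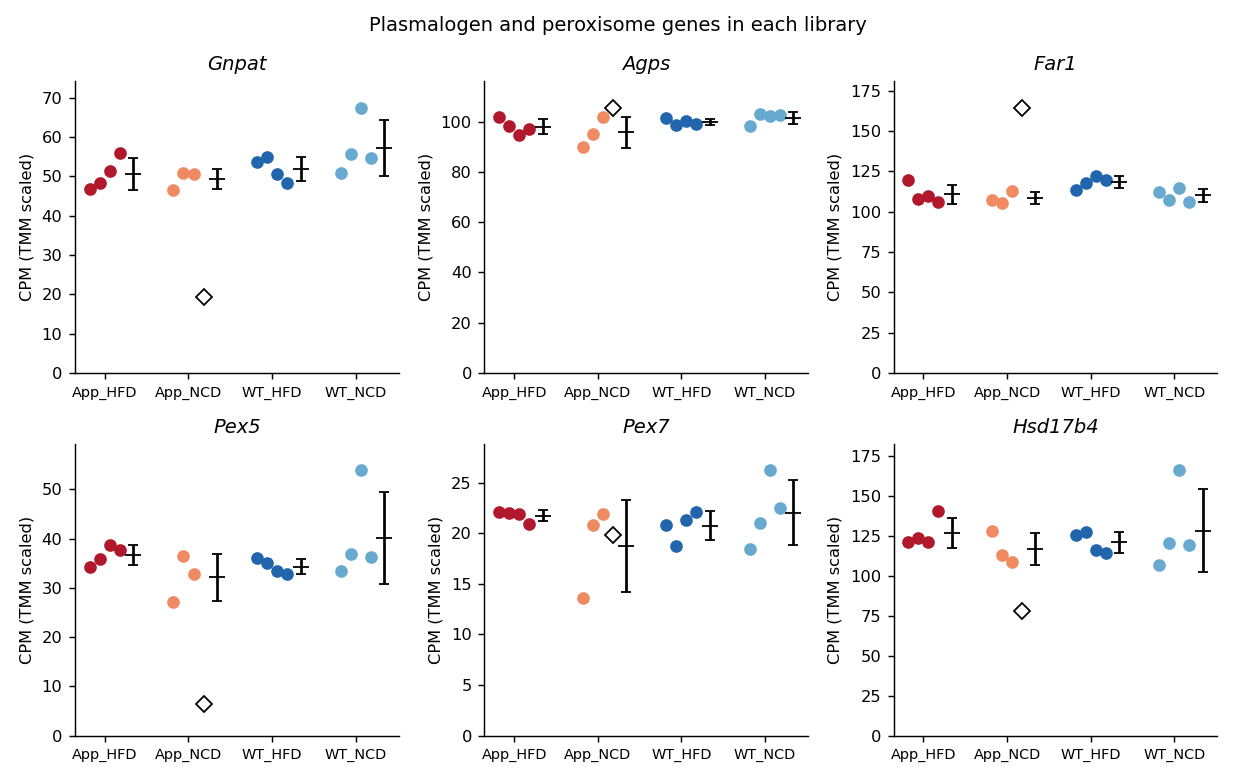
Level of each member in CPM (TMM scaled) in the 16 libraries, in the order App_HFD, App_NCD, WT_HFD and WT_NCD, with dots ordered by mouse number. The open diamond is App_NCD 553 and the bars are the mean ± SD of the group, over 3 libraries in App_NCD (without 553) and 4 in the others; Agps stays near 100 CPM in every group, while App_NCD 553 is at 19.3 for Gnpat and 6.4 for Pex5.

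Over the 15 libraries other than App_NCD 553, Agps and Far1 were among the steadiest of the genes at 10 to 250 CPM. This band is wide, and genes of matched level were not compared. Their coefficients of variation, the SD as a share of the mean, were 3.67% and 5.09%, against 9.88% for Gnpat, 11.7% for Hsd17b4, 12.8% for Pex7 and 15.7% for Pex5. Of 9311 genes at 10 to 250 CPM, 0.107% had a lower SD of log2 CPM than Agps and 1.08% had a lower one than Far1. For Gnpat that share was 20.8%, for Hsd17b4 30.4%, for Pex7 49.0% and for Pex5 49.7%, so the 2 receptors varied about as much as the median gene of that range. Per kilobase of the longest coding transcript, Hsd17b4 was highest at 46.0 ± 5.37 CPM per kb (SD, n = 15 libraries), followed by Far1 at 22.6 ± 1.15, Gnpat at 17.6 ± 1.74, Agps at 13.5 ± 0.494, Pex5 at 11.5 ± 1.8 and Pex7 at 2.59 ± 0.333. In that order the mean ± SD ranges overlap for the neighbours Agps and Pex5. Per kilobase of all annotated exons, Gnpat at 14.6 comes before Far1 at 13.9, so the order of these 2 genes depends on the length used.

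Group means differed little for Agps and more for the other members. Agps averaged 98.0 ± 2.91 CPM in App_HFD, 98.2 ± 6.98 in App_NCD, 99.9 ± 1.18 in WT_HFD and 102 ± 2.33 in WT_NCD (SD, n = 4 each), and 95.7 ± 6.01 in App_NCD without 553 (n = 3). Far1 averaged 111 ± 6.00 CPM in App_HFD, 122.5 ± 28.2 in App_NCD, 118.5 ± 3.67 in WT_HFD and 110.1 ± 4.23 in WT_NCD, and 108 ± 3.85 in App_NCD without 553. Gnpat averaged 50.6 ± 4.06 CPM in App_HFD, 41.8 ± 15.1 in App_NCD, 51.9 ± 2.95 in WT_HFD and 57.2 ± 7.18 in WT_NCD, and 49.3 ± 2.49 in App_NCD without 553. With App_NCD 553 the App_NCD mean of Far1 was above the other 3 groups and without it below them; the App_NCD mean of Gnpat was the lowest of the 4 either way. Pex5 averaged 36.65 ± 2.03 CPM in App_HFD, 25.7 ± 13.4 in App_NCD, 34.3 ± 1.5 in WT_HFD and 40.1 ± 9.31 in WT_NCD, and 32.1 ± 4.75 in App_NCD without 553. Pex7 averaged 21.7 ± 0.534 CPM in App_HFD, 19.0 ± 3.75 in App_NCD, 20.7 ± 1.42 in WT_HFD and 22.0 ± 3.25 in WT_NCD, and 18.8 ± 4.54 in App_NCD without 553. Hsd17b4 averaged 127 ± 9.36 CPM in App_HFD, 107 ± 21 in App_NCD, 121 ± 6.49 in WT_HFD and 128 ± 26.0 in WT_NCD, and 117 ± 10.1 in App_NCD without 553. For the receptors and Hsd17b4 the widest spreads are in the 2 control-diet groups.

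**Figure D2:**
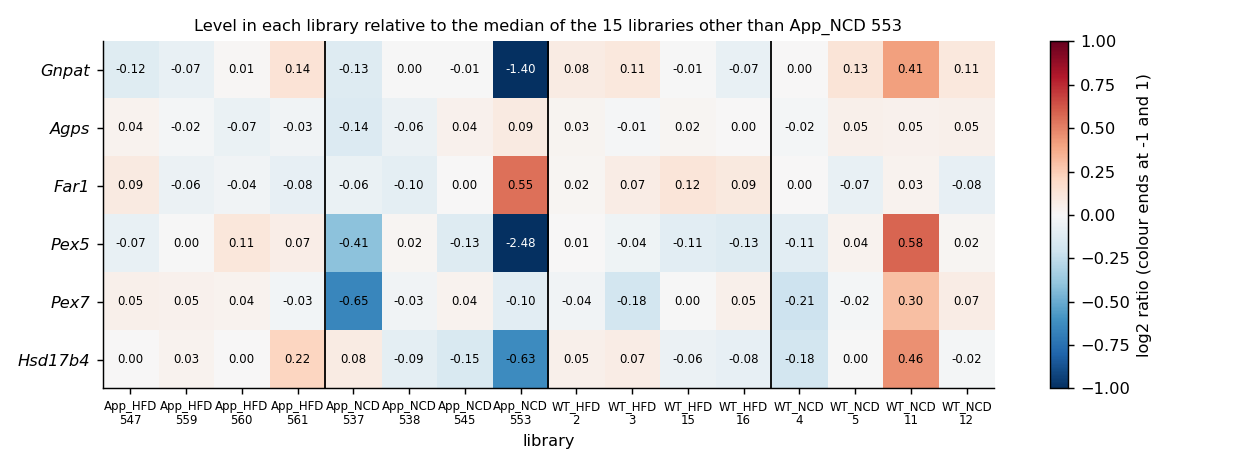
Log2 ratio of each member in each library (columns, by group and mouse number) to its median over the 15 libraries other than App_NCD 553, with blue for lower, red for higher and colour ending at -1 and 1. The cells that stand out lie in 3 libraries: App_NCD 553, WT_NCD 11 (up to 0.58, for Pex5) and App_NCD 537 (down to -0.65, for Pex7).

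Set beside its median over the other 15 libraries, App_NCD 553 had 1.46 times the level of Far1, 1.06 times that of Agps, 0.931 of Pex7, 0.647 of Hsd17b4, 0.379 of Gnpat and 0.179 of Pex5. The ratio of Far1 to Pex5 counts, which no scaling touches, was 25.6 in this library and 2.13 to 3.97 in the other 15. On library totals alone all 6 members were lower in App_NCD 553 than in any other library: Far1 had 81.1 CPM, against 106.5 to 132.9, and Pex5 had 3.16, against 28.1 to 57.7. The direction for Far1 in this library therefore depends on the scaling, whereas the order among members does not.

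That order was the order of GC content of the longest coding transcript: 36.9% in Far1, 41.5% in Agps, 44.0% in Pex7, 49.1% in Hsd17b4, 50.1% in Gnpat and 55% in Pex5. The rank correlation of GC with the deviation was -1 over the 6 members, and -0.563 over 14799 genes averaging 1 CPM or more, all measured in the 1 library. Among these genes the median level in App_NCD 553 relative to the other libraries was 1.9 times for transcripts under 40% GC (827 genes), 1.52 times at 40 to 45%, 1.08 times at 45 to 50%, 0.686 times at 50 to 55% and 0.401 times at 55% and over (3533 genes). In the other 15 libraries the correlation with GC over all genes ran from -0.125 to 0.211, the highest being that of WT_NCD 11. Over the 6 members alone it was 0.943 there, but it was also -0.943 in WT_HFD 15, where the correlation over all genes was 0.0157, so a value over 6 genes says little by itself. Removing each library's GC trend left the members of App_NCD 553 at log2 ratios of -0.86 for Gnpat, -0.54 for Agps, -0.37 for Far1, -1.12 for Pex5, -0.48 for Pex7 and -0.28 for Hsd17b4, all below 0. WT_NCD 11 also had the lowest mitochondrial share, 1.03%. Whether GC content or RNA quality produced these deviations was not tested.

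**Figure D3:**
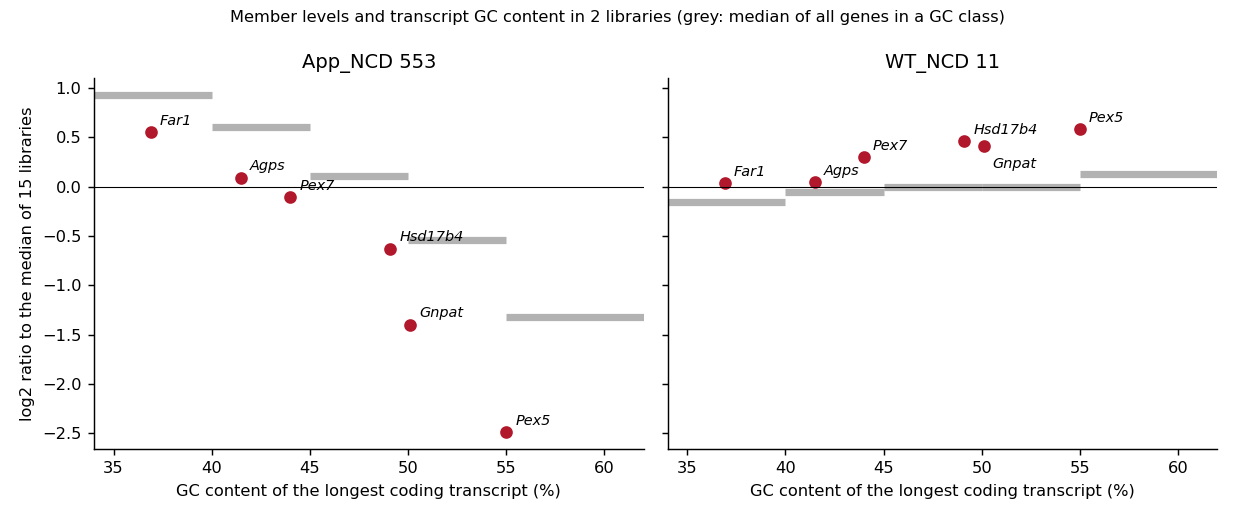
Log2 ratio to the median of the 15 libraries other than App_NCD 553 (vertical axis) against transcript GC content in percent (horizontal axis) for the 6 members (red) in App_NCD 553 and WT_NCD 11. Grey bars are the medians of all genes in 5 GC classes, the outer classes cut at the axis ends; the members fall with GC in App_NCD 553, and in WT_NCD 11 they range from 0.03 for Far1 to 0.58 for Pex5.

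Between genotypes no member passed the test. edgeR's quasi-likelihood test was fitted on the whole table, with Benjamini-Hochberg adjustment over all tested genes and a threshold of 0.05. On the control diet (App_NCD against WT_NCD) it called 0 of the 6 members, beside 8.39% of all genes with 16 libraries and 17.5% with 15; on the high-fat diet (App_HFD against WT_HFD) it also called 0 of 6, beside 7.14% and 19.3%. For the mean of both diets it called 0 of 6, beside 17% and 33.6%. DESeq2 called 0 of 6 in each of these as well. With so few members, 0 of 6 is not a result about them as a list; their sizes and intervals say more.

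The control-diet difference was lowest for Pex5 and Gnpat. With 16 libraries the log2 fold change (App_NCD minus WT_NCD) was -0.64 ± 0.344 (SE) for Pex5, with adjusted p = 0.247 by edgeR, and -0.45 ± 0.224 for Gnpat, with adjusted p = 0.212. Without App_NCD 553 it was -0.35 ± 0.144 for Pex5 (95% interval -0.66 to -0.046; unadjusted p = 0.0271, adjusted p = 0.103, edgeR) and -0.25 ± 0.102 for Gnpat (-0.46 to -0.03; unadjusted p = 0.0286, adjusted p = 0.107, edgeR). These are the 2 members with an unadjusted p under 0.05 there, beside 32.6% of all genes; with 16 libraries there was none, beside 26.3%. For Gnpat the highest of the 3 remaining App_NCD libraries, at 50.8 CPM, is just under the lowest WT_NCD library, at 50.9; for Pex5 the groups overlap. Both values also rest on WT_NCD 11: without it and App_NCD 553, the Pex5 difference was -0.14 (adjusted p = 0.402, edgeR) and the Gnpat difference -0.12 (adjusted p = 0.395, edgeR). The other 4 members had -0.27 ± 0.147 (Pex7), -0.17 ± 0.132 (Hsd17b4), -0.12 ± 0.0691 (Agps) and -0.052 ± 0.0725 (Far1) without App_NCD 553. All 6 are below 0, with a median of -0.21, where the median of all genes was -0.051. Without WT_NCD 11 as well, the members' median was -0.095, and Far1 (0.0084) and Hsd17b4 (0.022) were above 0. The direction is also tied to the scaling. With 16 libraries the members' median was -0.24 by TMM and by RLE, -0.50 on library totals (where the median of all genes is -0.29) and 0.17 when libraries are scaled to the myelin markers (median of all genes 0.37). Each scaling applies a factor per library to all genes alike. Where the members lie relative to all genes is therefore not checked by changing it. An offset for each library's GC trend, chosen after seeing the data, shifts each gene by its GC content. With it and 16 libraries the members' median was -0.29 and that of all genes 0.057. Without App_NCD 553 these medians were -0.21 and -0.037. No member was called with the offset, the lowest adjusted p being 0.101 (Pex5, 16 libraries, edgeR).

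On the high-fat diet the members lay on both sides of 0. Without App_NCD 553, which is not in this pair but shares its estimate of the spread, the log2 fold changes (App_HFD minus WT_HFD) were -0.056 ± 0.0937 for Gnpat, -0.05 ± 0.0638 for Agps, -0.12 ± 0.0671 for Far1, 0.073 ± 0.133 for Pex5, 0.046 ± 0.136 for Pex7 and 0.045 ± 0.121 for Hsd17b4. The 95% intervals of all 6 together ran from 0.835-fold to 1.28-fold, and larger genotype effects lie outside them. With all 16 libraries the same intervals ran from 0.645-fold to 1.77-fold. Averaged over the diets, Gnpat had -0.15 ± 0.069 (unadjusted p = 0.045, adjusted p = 0.106, edgeR, 15 libraries), the 1 member with an unadjusted p under 0.05, beside 43.2% of all genes; with 16 libraries there was none, beside 30.4%.

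**Figure D4:**
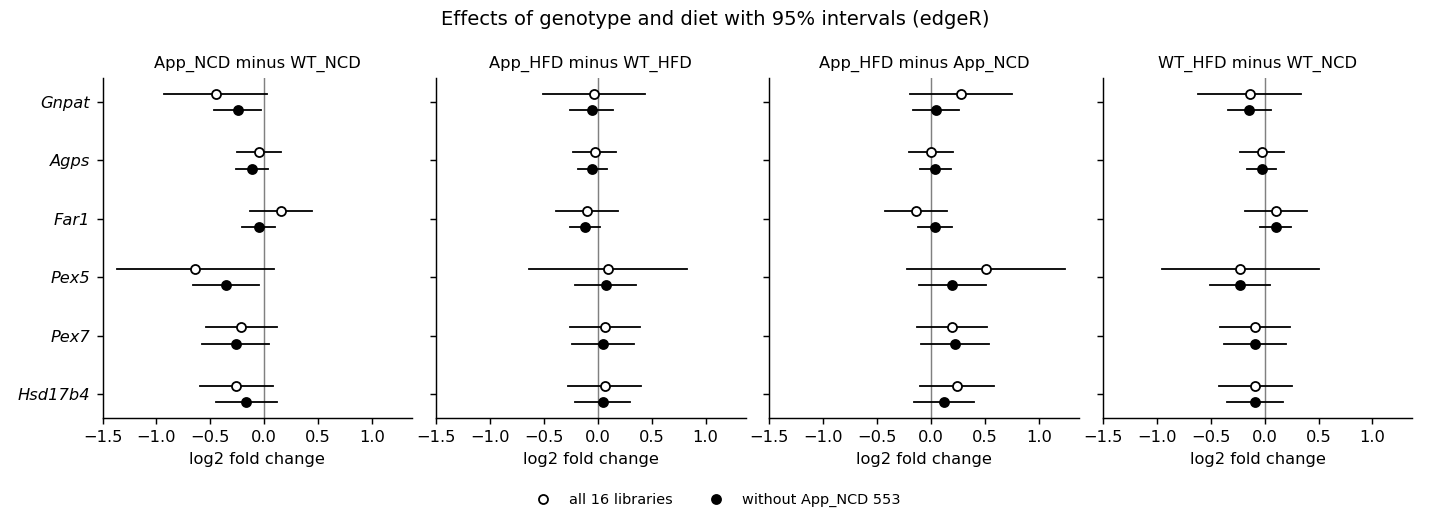
Log2 fold changes (horizontal axis) of the 6 members for genotype on each diet and for diet in each genotype, with 95% intervals from edgeR; open circles use all 16 libraries and filled circles leave out App_NCD 553. The intervals are narrower without that library, and all but those of Gnpat and Pex5 in App_NCD minus WT_NCD then include 0.

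The diet did not move a member past the threshold either. edgeR called 0 of 6 members and 0% of all genes for App_HFD against App_NCD and for WT_HFD against WT_NCD, with 16 and with 15 libraries, and no member had an unadjusted p under 0.05. DESeq2 called 102 and 7 genes in these comparisons with 16 libraries, none of them a member. Without App_NCD 553 the App_HFD minus App_NCD log2 fold changes were 0.046 ± 0.101 for Gnpat, 0.04 ± 0.069 for Agps, 0.036 ± 0.0725 for Far1, 0.20 ± 0.144 for Pex5, 0.22 ± 0.147 for Pex7 and 0.12 ± 0.131 for Hsd17b4. With that library they were wider: Pex5 had 0.51 ± 0.343 and Far1 -0.14 ± 0.135. The WT_HFD minus WT_NCD values, without App_NCD 553, were -0.14 ± 0.0935 for Gnpat, -0.027 ± 0.0638 for Agps, 0.10 ± 0.0671 for Far1, -0.23 ± 0.132 for Pex5, -0.092 ± 0.135 for Pex7 and -0.09 ± 0.121 for Hsd17b4. Without App_NCD 553 the intervals of the 6 genes ran from 0.889-fold to 1.45-fold in App mice and from 0.702-fold to 1.19-fold in WT mice. With all 16 libraries they ran from 0.742-fold to 2.36-fold and from 0.517-fold to 1.42-fold. The 2 comparisons have no mice in common.

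Averaged over both genotypes, the diet effect called 0 of 6 members beside 0.0459% of all genes with 16 libraries and 0.255% with 15. No member had an unadjusted p under 0.05, and DESeq2, which called 111 genes with 16 libraries, called none of the 6. The members' log2 fold changes (HFD minus NCD) lay between -0.049 for Gnpat and 0.069 for Far1 without App_NCD 553, with intervals from 0.856-fold to 1.21-fold. With all 16 libraries the intervals ran from 0.772-fold to 1.58-fold. The difference of the diet effects, App minus WT, called 0 of 6 members and 0% of all genes with 16 and with 15 libraries; DESeq2 called 3 genes, no member among them. Pex5 had the largest such difference among the 6, 0.43 ± 0.196 without App_NCD 553 (unadjusted p = 0.0456, adjusted p = 1, edgeR); it was the 1 member with an unadjusted p under 0.05, beside 2.75% of all genes. Without WT_NCD 11 as well it was 0.24, and with all 16 libraries 0.73 ± 0.485, where no member had an unadjusted p under 0.05. The groups behind it are App_HFD at 34.2 to 38.8 CPM, App_NCD at 27.1 to 36.5, WT_HFD at 32.8 to 36.1 and WT_NCD at 33.3 to 53.9, so the high and low ends belong to WT_NCD 11 and App_NCD 537.

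Some other genes of the peroxisome changed with genotype, in a share of the lists that was below that of all genes with 16 libraries and above it with 15. The 7 lists, with 77 genes in all, members included, were read from the same fit. With 16 libraries, 1 of the 77 rose and 2 fell on the control diet (3.9%, beside 8.39% of all genes), and 1 rose and 1 fell on the high-fat diet (2.6%, beside 7.14%). Without App_NCD 553, 7 rose and 14 fell on the control diet (27.3%, beside 17.5%), and 7 rose and 10 fell on the high-fat diet (22.1%, beside 19.3%), with no test of these lists against other genes. Leaving out WT_NCD 11 as well, 6 rose and 7 fell on the control diet (16.9%), while the count of all genes called went from 3900 to 3091. No gene of the 77 was called for the diet in either genotype or for the difference of diet effects, with 16 or with 15 libraries.

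No gene of the ether lipid synthesis list was called on either diet, with 16 or 15 libraries. Its other members are Tmem189, the desaturase that makes the vinyl ether bond, the ethanolamine phosphotransferases Cept1 and Selenoi, the reductase Dhrs7b and Far2, a second fatty acyl-CoA reductase. Selenoi was called lower in the mean of both diets without App_NCD 553 (-0.23 ± 0.0643, adjusted p = 0.013, edgeR), and Cept1 higher on the high-fat diet once WT_NCD 11 was left out too (0.23 ± 0.0795, adjusted p = 0.0485, edgeR). Tmem189 averaged 164 ± 8.94 CPM in App_HFD, 123 ± 39.6 in App_NCD, 145 ± 16.4 in WT_HFD and 130 ± 15.0 in WT_NCD (SD, n = 4 each), with 143 ± 5.92 in App_NCD without 553. Far2 averaged 3.77 ± 0.255 CPM in App_HFD, 4.34 ± 1.45 in App_NCD, 4.43 ± 0.922 in WT_HFD and 3.81 ± 0.152 in WT_NCD, well under Far1. On the breakdown side, Tmem86a, a lysoplasmalogenase, was called higher in App mice without App_NCD 553 (0.65 ± 0.211 on the control diet and 0.66 ± 0.198 on the high-fat diet, adjusted p = 0.0453 and 0.0294 by edgeR), but in neither pair with 16 libraries.

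Abcd2, a peroxisomal transporter of very long chain fatty acyl-CoA, had the clearest rise. It averaged 97.1 ± 12.3 CPM in App_HFD, 90.3 ± 11.9 in App_NCD, 36.6 ± 5.13 in WT_HFD and 38.3 ± 6.37 in WT_NCD (SD, n = 4 each), so the genotypes do not overlap. Its log2 fold change was 1.24 ± 0.155 on the control diet (adjusted p = 0.000116, edgeR) and 1.41 ± 0.155 on the high-fat diet (adjusted p = 4.04e-05, edgeR), and it was called under all 25 alternatives in both pairs. Acox3, an acyl-CoA oxidase of branched-chain substrates, averaged 88.1 ± 9.27 CPM in App_HFD, 92.0 ± 3.49 in App_NCD without 553, 45.5 ± 4.37 in WT_HFD and 49.9 ± 2.35 in WT_NCD, but 18.3 CPM in App_NCD 553. It was called without that library (0.85 ± 0.0932 and 0.93 ± 0.0877, adjusted p = 1.74e-05 and 3.75e-06, edgeR). With it the values were 0.56 ± 0.331 and 0.95 ± 0.333 (adjusted p = 0.29 and 0.109, edgeR), and the mean of both diets was called (0.76 ± 0.235, adjusted p = 0.0367, edgeR). Crat, a carnitine acetyltransferase, and the nuclear receptors Rxra and Ppard also rose in both pairs without App_NCD 553, by 0.32 to 0.65 on the log2 scale. Other genes of the list that holds Rxra and Ppard fell in that fit. Ppara fell on the control diet (-0.59 ± 0.189, adjusted p = 0.0445, edgeR). Ppargc1a fell on the high-fat diet (-0.74 ± 0.18, adjusted p = 0.00877, edgeR).

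Ephx2, the soluble epoxide hydrolase, was the one gene of these lists that fell on both diets with 16 libraries: it averaged 8.52 ± 1.42 CPM in App_HFD, 8.95 ± 1.32 in App_NCD, 15.3 ± 2.37 in WT_HFD and 16.0 ± 1.70 in WT_NCD. Its log2 fold change was -0.84 ± 0.172 on both diets (adjusted p = 0.00657 and 0.0066, edgeR, 16 libraries), and it was called under 24 of 25 alternatives in each pair. Hacl1, a lyase of fatty acid α-oxidation, averaged 9.39 ± 0.659 CPM in App_HFD, 9.17 ± 1.75 in App_NCD, 12.9 ± 1.43 in WT_HFD and 13.7 ± 0.928 in WT_NCD, and fell on the control diet with 16 libraries (-0.57 ± 0.154, adjusted p = 0.0311, edgeR; called under 19 of 25 alternatives). Without App_NCD 553 it fell on both diets (-0.49 ± 0.114 and -0.48 ± 0.105, adjusted p = 0.0093 and 0.00484, edgeR). Acox2, a low-level acyl-CoA oxidase at 3.09 CPM on average, fell on both diets without App_NCD 553 (-0.89 ± 0.252 and -1.005 ± 0.233, adjusted p = 0.0253 and 0.00666 by edgeR). With it the values were -1.15 ± 0.368 and -0.98 ± 0.368 (adjusted p = 0.0647 and 0.141, edgeR), and the mean of both diets was called (-1.07 ± 0.26, adjusted p = 0.00948, edgeR). Without the same library, the α-oxidation hydroxylase Phyh fell on the high-fat diet (-0.40 ± 0.0971) and the nudix hydrolase Nudt12 on both (-0.64 ± 0.141 and -0.66 ± 0.13). Among the peroxins, the proteins that build and supply the organelle, none of 17 was called on either diet with 16 libraries, while Pex13, the docking factor for loaded Pex5, fell in the mean of both diets (-0.29 ± 0.0912, adjusted p = 0.0391, edgeR). Without App_NCD 553, 3 of 17 fell on the control diet and 2 of 17 on the high-fat diet. Of all 22322 genes, 1612 and 1906 fell in these 2 pairs, and the peroxins were not tested against them. The peroxins that fell were Pex13 (-0.25 ± 0.0728), the ATPase subunit Pex6 (-0.69 ± 0.186) and Pex16 (-0.67 ± 0.205) on the control diet, and Pex13 (-0.26 ± 0.0672) and Pex11a (-0.48 ± 0.136) on the high-fat diet. Without WT_NCD 11 as well, Pex6 was the 1 of those 3 still called on the control diet, at -0.39 ± 0.108.

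Markers of other cell types moved with the genotype as well. The 12 markers of plaque-associated microglia summed to 8740 to 14470 CPM in App_HFD and 6781 to 14810 in App_NCD. The 6781 was App_NCD 553, without which the App_NCD sums were 13750 to 14810. The sums were 2578 to 3013 in WT_HFD and 3117 to 3984 in WT_NCD. By the test without App_NCD 553, 12 of 12 were higher on either diet. In that fit 2288 of all 22322 genes were called higher on the control diet and 2401 on the high-fat diet. Other markers fell, given here first for the fit without App_NCD 553, in which 1612 and 1906 of all 22322 genes fell on the control and high-fat diets. Of 10 endothelial markers 6 fell on the control diet and 5 on the high-fat diet (median log2 fold changes -0.96 and -0.87), and of 8 pericyte and smooth muscle markers 6 and 3 fell (-0.83 and -0.57). Of 10 astrocyte markers 4 fell on the control diet, and on the high-fat diet 2 fell and 1 rose (-0.54 and -0.46). Of 8 ependymal and choroid plexus markers 5 fell on the high-fat diet (median -1.09, against -0.62 on the control diet, where none was called), and so did the 5 erythroid markers. The erythroid sums were 9049, 384, 1126 and 4719 CPM in WT_HFD 2, 3, 15 and 16, against 147 to 467 in App_HFD. The WT_HFD sums were thus uneven, and WT_HFD 3 lay inside the App_HFD range. With 16 libraries 2 endothelial, 3 pericyte and smooth muscle and 2 astrocyte markers fell on the control diet, beside 410 of all 21768 genes. On the high-fat diet 2, 1 and 0 fell, beside 446. The myelin markers leaned lower too with 16 libraries, though none was called in that fit. It includes App_NCD 553, whose myelin sum was 52240 CPM. Without that library the App_NCD sums were 31050 to 41280 CPM, against 36010 to 48190 in WT_NCD. The test without it is not given here for these markers. With 16 libraries, 13 of the 16 markers were below 0 on the control diet and 15 on the high-fat diet (medians -0.40 and -0.15). The part of these cells in the changes of Abcd2, Acox3, Ephx2 and the rest was not tested. Scaling each library to the myelin markers, which moves all genes upward alike (medians of all genes 0.37 and 0.18), gave 5 rises and 0 falls among the 77 list genes on the control diet and 3 and 0 on the high-fat diet, with 16 libraries. Of all genes, 3137 and 1122 were then called, up or down.

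**Figure D5:**
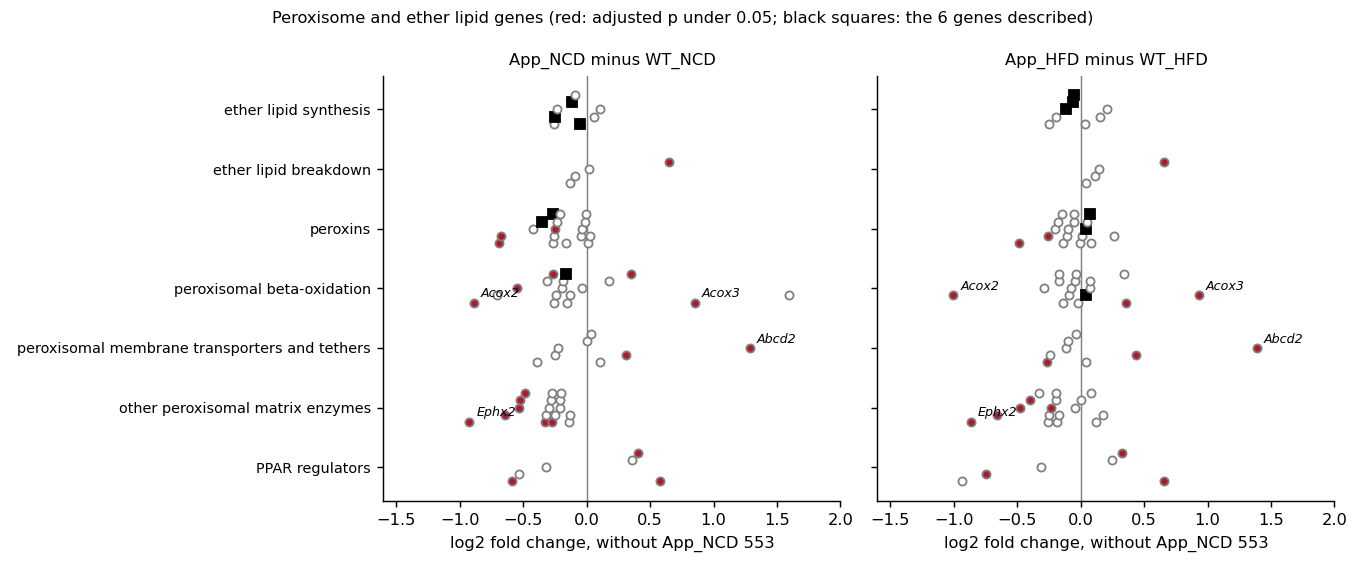
Log2 fold change without App_NCD 553 (horizontal axis) of the genes of 7 lists (rows) for App_NCD minus WT_NCD and App_HFD minus WT_HFD; black squares are the 6 members, red fill marks adjusted p under 0.05 (edgeR) and the vertical offset within a row has no meaning. No member is red. The members run from -0.35 to -0.052 in App_NCD minus WT_NCD and from -0.12 to 0.073 in App_HFD minus WT_HFD. Abcd2 and Acox3 lie to the right and Ephx2 and Acox2 to the left.

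Members of one pathway did not share one pattern across mice. Over the 15 libraries other than App_NCD 553 the highest rank correlation among the 15 pairs was 0.757, for Gnpat and Pex5 (0.80 over 16), followed by 0.579 for Agps and Pex7, the enzyme and its receptor (0.403 over 16); the lowest was -0.411, for Far1 and Pex5 (-0.515 over 16). The libraries share groups, depth and the GC trends given above, so these are descriptions. Among 14815 genes, the one most like Gnpat over all 16 libraries was the processed pseudogene Gm9299 (rank correlation 0.944), for Agps it was Ube2g1 (0.941), for Far1 Selenot (0.838), for Pex5 Thoc3 (0.879), for Pex7 Nudt22 (0.85) and for Hsd17b4 the processed pseudogene Gm17383 (0.938). Over 15 libraries the first gene was again Gm9299 (0.932), Ube2g1 (0.929), Selenot (0.804), Thoc3 (0.854) and Gm17383 (0.925) for the same members, while for Pex7 Maf1 and Nudt22 were level at 0.843. The next for Pex5 were Psmd13 and Psmd2, over 16 libraries (0.865 and 0.844) and over 15 (0.836 and 0.811). None of the 6 members was among the 3 genes most like another.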

How the data were processed

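The values were estimated counts per gene that the authors deposited for each library and made, per the submitters' processing notes, with fastp 0.23.2, HISAT2 2.2.1 and StringTie 2.2.1 on mm10; bedtools 2.25.0 was also named. The annotation counted against is not given in the sources used here. StringTie derives counts from coverage and may split reads among genes that overlap or resemble each other. All deposited values were whole numbers, and rounding them changed nothing. Libraries of one group differed well beyond sampling noise (chi-square per gene of at least 23.6), so none was counted as a repeat.

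Genes were filtered with filterByExpr, scaled by TMM and tested with edgeR 4.0.16 (quasi-likelihood, robust; limma 3.58.1, R 4.3.3) in 1 fit over the 4 groups (16 libraries, residual df 12). P-values were adjusted by Benjamini-Hochberg over 21768 genes, or 22322 without App_NCD 553, with a threshold of 0.05. The edgeR fit was also run on counts simulated from its own means and spread, with known changes and no library skewed by GC. The GC offset was run on simulated counts with a GC-skewed library. The outcomes are not given here, so these runs are no check on the results above. Alternatives were DESeq2 1.42.0, RLE, library totals, scaling to the myelin markers, no filter, at least 10 counts in all libraries, and each library left out. Chosen after seeing the data were a GC offset per library (lowess, span 0.3) and leaving out App_NCD 553 with WT_NCD 11. The members, the gene lists and the tests were chosen with earlier results of these data known.

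Named were the 6 members, list genes past the threshold (up to 6 per list by adjusted p, otherwise up to 4 by level), the 3 genes most like each member, and App; the text gives fewer. Sequences are from RefSeq, positions from GENCODE M21. One gene of the lists is counted but not reported here by name.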

Additional observations from a re-analysis of the deposited data

Results flagged for a closer look

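In 5 of the 24 sets of 4 values (6 genes in 4 groups), 1 library lay apart from the other 3 by a gap that, as a share of the range, exceeded Dixon's 95% critical value; chance marks about 1 set in 20. In App_NCD 553, Gnpat had 19.28 CPM, against 46.4 in the next library of its group, and Far1 had 164.5 CPM, against 112.7. In WT_NCD 11, Pex5 had 53.88 CPM, against 36.84. In App_HFD 561, Hsd17b4 had 140.5 CPM, against 123.7. In WT_NCD 4, Agps had 98.13 CPM, against 102.5; this set is narrow, with a coefficient of variation of 2.29%. Pex5 in App_NCD 553, the value farthest from its median among all members and libraries, was not marked, because App_NCD 537 was low as well and widened the gap among the others.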

How the results depend on the processing

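No paired analysis was possible because no mouse number occurs in more than 1 group. No member passed the threshold under any of the 175 combinations of comparison and alternative. Of 1050 recomputed member estimates, 973 kept their sign and 77 changed it; none of these 77 was larger than 0.259 on the log2 scale at first, and the cause was not tested. Values below are log2 fold changes. With library totals, App_NCD minus WT_NCD was -0.21 for Far1; App_HFD minus WT_HFD was -0.029 for Pex7 and -0.028 for Hsd17b4; App_HFD minus App_NCD was 0.21 for Agps and 0.13 for Far1; the interaction was 0.015 for Far1; the genotype mean was -0.20 for Far1; the diet mean was 0.099 for Agps and 0.12 for Far1. With scaling to the myelin markers, App_NCD minus WT_NCD was 0.38 for Agps, 0.20 for Pex7 and 0.13 for Hsd17b4; App_HFD minus WT_HFD was 0.14 for Gnpat, 0.15 for Agps and 0.0795 for Far1; App_HFD minus App_NCD was -0.091 for Pex7 and -0.027 for Hsd17b4; the interaction was -0.23 for Agps; the genotype mean was 0.0061 for Gnpat, 0.26 for Agps, 0.22 for Pex7 and 0.19 for Hsd17b4; the diet mean was -0.059 for Gnpat, -0.11 for Pex7 and -0.079 for Hsd17b4. The interaction of Agps was -0.0082 with RLE and -0.007 with DESeq2. Without the filter, App_HFD minus App_NCD was 0.016 for Agps and the genotype mean -0.0097 for Far1. With the GC offset, App_NCD minus WT_NCD was -0.19 for Far1, App_HFD minus App_NCD 0.16 for Agps and 0.15 for Far1, the interaction 0.11 for Far1, the genotype mean -0.13 for Far1, and the diet mean 0.049 for Agps and 0.098 for Far1. With the GC offset and App_NCD 553 left out, App_NCD minus WT_NCD was -0.13 for Far1, App_HFD minus App_NCD 0.063 for Agps and 0.0898 for Far1, the interaction 0.051 for Far1, the genotype mean -0.10 for Far1, and the diet mean -0.055 for Gnpat, 0.00021 for Agps, 0.064 for Far1 and -0.016 for Pex5. With App_NCD 553 and WT_NCD 11 left out, App_NCD minus WT_NCD was 0.022 for Hsd17b4, WT_HFD minus WT_NCD 0.0028 for Pex7 and 0.061 for Hsd17b4, App_HFD minus App_NCD 0.0298 for Agps and 0.027 for Far1, the genotype mean -0.0402 for Far1 and 0.048 for Hsd17b4, and the diet mean -0.0089 for Gnpat, 0.0034 for Agps and 0.076 for Far1.

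With each library left out in turn, App_NCD minus WT_NCD ran from -0.052 (without App_NCD 553) to 0.18 for Far1; App_HFD minus WT_HFD from -0.0044 (without WT_HFD 3) to 0.066 for Pex7 and from -0.016 (without App_HFD 561) to 0.085 for Hsd17b4; WT_HFD minus WT_NCD from -0.17 to 0.058 (without WT_NCD 11) for Hsd17b4; App_HFD minus App_NCD from -0.044 to 0.0397 for Agps and from -0.21 to 0.036 for Far1 (both highest without App_NCD 553); the interaction from -0.013 to 0.067 for Agps; the genotype mean from -0.085 to 0.029 for Far1; and the diet mean from -0.049 to 0.12 for Gnpat, -0.037 to 0.0063 for Agps, -0.054 to 0.069 for Far1, -0.016 to 0.25 for Pex5 and -0.019 to 0.096 for Pex7.

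The count of all genes called moved far more than these values. On the control diet it was 1826 with 16 libraries, 3900 without App_NCD 553, 3398 with DESeq2, 3137 with myelin marker scaling, 841 with library totals, and 939, 945 and 969 without WT_NCD 12, 11 and 5. On the high-fat diet it was 1554, 4307 without App_NCD 553, 2508 with DESeq2, and as low as 869, without WT_HFD 2. For the genotype mean it was 3692, and 7502 without App_NCD 553; for the diet mean 10, and between 0 and 111.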
